A study of Drosophila melanogaster with 4 samples.

Results

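The cytoplasmic ribosomal protein genes of *Drosophila melanogaster* were followed in testis RNA of *sws*1 and WT males. They were taken as every gene whose symbol begins with RpL (large subunit) or RpS (small subunit), written with a capital R, so that the mitochondrial ribosomal proteins stayed out. This gave 92 genes of the 13771 in the table, with 54 RpL and 38 RpS symbols and 233 transcripts. Of these, 76 were single genes or the canonical copy of a pair, 12 were paralogs of a canonical gene, and 4 formed the duplicate pairs *RpS14a* with *RpS14b* and *RpL34a* with *RpL34b*. The protein of the small subunit encoded by *sta* does not carry such a symbol and was not counted among them. Both genotypes were 5 days old. The *sws*1 males carried a mutant allele of *sws*, the fly ortholog of the phospholipase gene *PNPLA6*, and WT was the strain Canton S. Each genotype had 2 libraries, each made from pooled pairs of whole testes after removal of ribosomal RNA, with a directional kit. The comparison sets testes of the *sws*1 stock against those of Canton S. The sources used here do not state that the 2 stocks share a genetic background. An effect of the mutation therefore cannot be told apart from other differences between the stocks.

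The ribosome is built of ribosomal RNA and a set of ribosomal proteins that are made in nearly equal numbers, so the genes for them are among the most highly expressed of a cell. *Drosophila* carries extra copies of some of these genes, and several of the copies, such as *RpL22-like* and *RpS5b*, are known for their use in the germline. In the testis, spermatogonia and spermatocytes divide and grow, while spermatids after meiosis rely largely on messages made earlier.

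The libraries held between 2218335 and 4498060 counts. The *sws* gene had 166 and 179 counts in *sws*1 and 662 and 500 counts in WT (log2FC = -1.28 ± 0.15, SE). Markers of other stages and tissues also differed between the genotypes. As a background, 11.5% of all tested genes were lower and 9.38% higher in *sws*1. The summed level of 7 spermatid markers was 4524 and 4936 CPM (counts scaled to equal library size) in *sws*1 and 7053 and 7225 CPM in WT, and 5 of the 7 were lower in *sws*1. The summed level of 10 accessory gland markers was 1297 and 484 CPM in *sws*1 and 32.7 and 40.1 CPM in WT. Of the 9 that could be tested, 5 were higher in *sws*1, and every one of the 10 had counts in WT. Markers of other somatic tissues had higher sums in *sws*1 as well. The sums were 174 and 191 CPM in *sws*1 and 109 and 95.8 CPM in WT for 4 cyst cell markers (2 higher), 296 and 284 CPM in *sws*1 and 10.004 and 19.3 CPM in WT for 4 ejaculatory duct markers (2 of the 2 tested higher), 705 and 640 CPM in *sws*1 and 339 and 305 CPM in WT for 6 fat body markers (1 of the 4 tested higher) and 296 and 230 CPM in *sws*1 and 169 and 174 CPM in WT for 5 muscle markers (2 of the 4 tested higher). Most fat body counts were those of *apolpp*, with 1629 and 1338 in *sws*1 and 1427 and 746 in WT. The other tested fat body markers did not pass, with log2FC of 0.69 for *Lsp2*, -0.12 for *Yp1* and -0.07 for *Yp2*. The ejaculatory duct sum came almost only from *Est-6* and *Dup99B*. *Ebp* (2 and 6 counts in *sws*1, 6 and 3 in WT) and *EbpII* were not tested. The fat body marker *Fbp1* was at 0 in WT. For 8 spermatocyte markers the sums were 3086 and 2840 CPM in *sws*1 and 3511 and 3514 CPM in WT, with 3 lower. For 6 spermatogonial markers they were 104 and 137 CPM in *sws*1 and 141 and 157 CPM in WT, and 1 of the 5 tested was lower. The part of these shifts in the values of the ribosomal protein genes was not tested. In whole testes, fewer cells of a type and less RNA per cell cannot be told apart.

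All 92 genes had counts in every library and passed the filter on low counts. The smallest value was 8 counts (*RpS28a* in *sws*1 replicate 2) and the largest was 3911 counts (*RpL41* in WT replicate 1), and 87 genes had at least 100 counts in every library. Together they took 2.40% of all counts in *sws*1 replicate 1 (Wilson 95% interval 2.38 to 2.41) and 1.99% in *sws*1 replicate 2 (1.97 to 2.01), against 2.20% in WT replicate 1 (2.19 to 2.22) and 2.02% in WT replicate 2 (1.999 to 2.03). These intervals cover counting error only. The difference between the genotypes was smaller than that between the replicates, with means of 2.19% ± 0.287 in *sws*1 and 2.11% ± 0.132 in WT (SD, n = 2 each, exact two-sided permutation p = 1.0, where 0.333 is the smallest possible). The large subunit took 1.38% and 1.16% of the counts in *sws*1 and 1.28% and 1.17% in WT. The small subunit took 1.02% and 0.831% in *sws*1 and 0.920% and 0.845% in WT. The genes moved together between replicates. Of the 92 genes, 80 had a higher CPM in *sws*1 replicate 1 than in *sws*1 replicate 2, and 78 had a higher CPM in WT replicate 1 than in WT replicate 2. Of all 9634 tested genes, 4646 and 4771 did so in *sws*1 and in WT.

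Levels of different genes are given as TPM, counts per base of transcript with the same total in each library. The median gene of the 92 stood at 444 and 375 TPM in *sws*1 and at 381 and 358 TPM in WT, while the median over the 12923 genes with counts was 11.6 and 11.4 TPM in *sws*1 and 8.50 and 8.96 TPM in WT. The large and the small subunit genes had like medians, 444 and 368 TPM against 446 and 409 TPM in the *sws*1 libraries. None of the 5 genes with the highest level in WT was a paralog. *RpL41*, which encodes the smallest ribosomal protein (25 codons), led with 2783 and 2549 TPM in *sws*1 and 3128 and 3210 TPM in WT. *RpS29*, a small zinc-binding protein of the small subunit, followed with 1264 and 1152 TPM in *sws*1 and 1313 and 1236 TPM in WT. *RpLP2*, a protein of the stalk that recruits translation factors, had 1147 and 1060 TPM in *sws*1 and 1123 and 1128 TPM in WT. The libraries of both genotypes overlapped for *RpS29* and *RpLP2* on this scale and did not for *RpL41*. In CPM scaled by TMM, both *sws*1 libraries lay below both WT libraries for these 2 genes as well. *RpS29* had 522 and 472 CPM in *sws*1 and 635 and 582 CPM in WT, and *RpLP2* had 544 and 499 CPM in *sws*1 and 623 and 609 CPM in WT. *RpS27A*, whose protein is made as a fusion with ubiquitin, had 996 and 757 TPM in *sws*1 and 806 and 804 TPM in WT. *RpS15* had 930 and 792 TPM in *sws*1 and 829 and 732 TPM in WT. For both genes the *sws*1 libraries overlapped those of WT. In the edgeR test none of the last 4 genes passed. *RpS29* had a Benjamini-Hochberg adjusted p of 0.048 in edgeR but a log2FC of -0.29, short of the required 0.3.

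The log2FC of 76 of the 92 lay between -0.3 and 0.3, against 51.6% of all tested genes. A gene passed the edgeR test when its adjusted p was under 0.05 and its log2FC was beyond 0.3 in either direction. By this rule 9 genes were lower in *sws*1 and 2 were higher. That is 12.0% of the 92, against 20.9% of all 9634 genes tested (11.5% lower and 9.38% higher). The median log2FC of the 92 genes was -0.089, against 0.02 over all tested genes, but it turned to 0.095 with an offset for transcript length and to 0.040 without *sws*1 replicate 2. An unadjusted p under 0.05 was seen in 20 of the 92 genes and in 33.1% of all tested genes. A negative log2FC was seen in 63 of them, and in 48.1% of all tested genes. The CPM of the genotypes did not overlap for 22 genes that were lower in *sws*1 and 16 that were higher, while 28.9% and 31.3% of all tested genes were lower and higher in this way. The number of lower genes rested on single libraries. It was 19 without *sws*1 replicate 1 (8.92% of all genes tested in that fit), 3 without *sws*1 replicate 2 (10.6%), 3 without WT replicate 1 (7.65%) and 10 without WT replicate 2 (9.47%). The number of higher genes in the same 4 fits was 1 (7.74%), 3 (8.31%), 0 (6.4%) and 0 (8.05%).

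**Figure D1:**
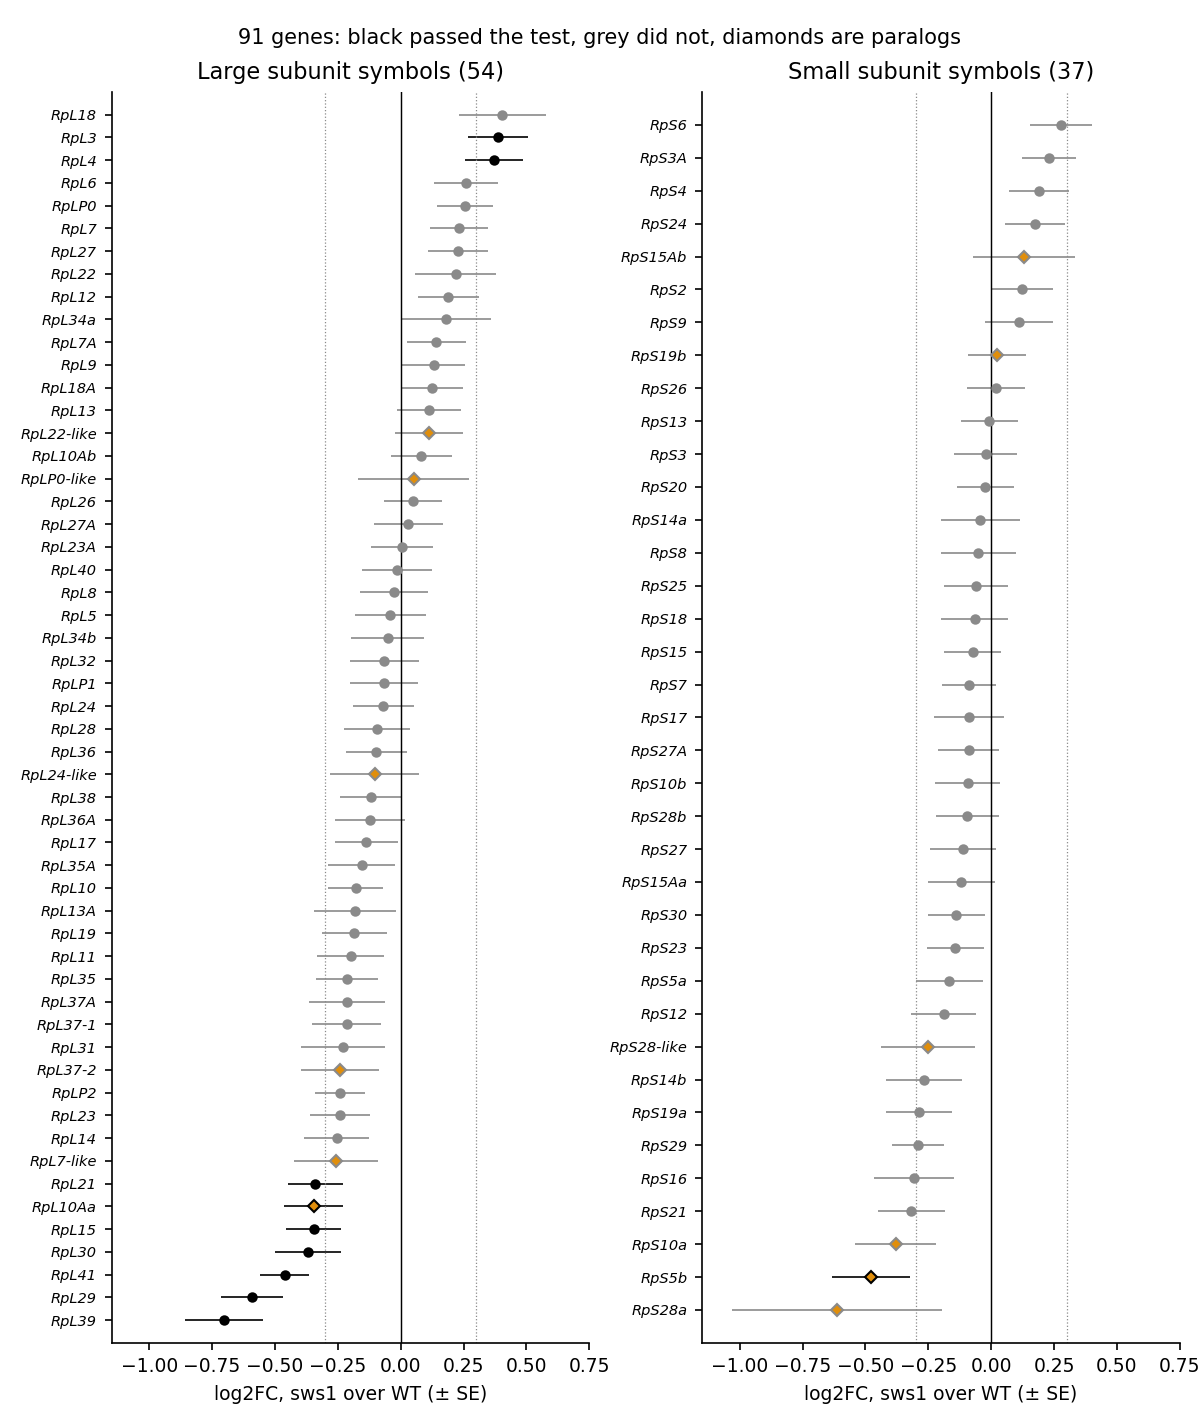
Log2FC (*sws*1 over WT, horizontal axis) of the 54 RpL genes (left) and of 37 RpS genes (right), with bars of 1 SE from edgeR. Black points passed the test, grey points did not, diamonds are paralogs and dotted lines mark -0.3 and 0.3. The lower genes sit toward the bottom of both panels, with *RpL39* at -0.70, and *RpL3* and *RpL4* are the 2 higher ones.

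The lower genes were mostly short ones of the large subunit. *RpL39*, a protein of 51 codons that lines the exit tunnel of the ribosome, had 119 and 99.4 CPM in *sws*1 and 152 and 206 CPM in WT (log2FC = -0.70 ± 0.15, edgeR adjusted p = 0.0031). *RpL29*, a small basic protein of 76 codons, had 134 and 145 CPM in *sws*1 and 206 and 215 CPM in WT (log2FC = -0.59 ± 0.12, edgeR adjusted p = 0.00132). *RpL41* had 699 and 635 CPM in *sws*1 and 919 and 919 CPM in WT (log2FC = -0.46 ± 0.10, edgeR adjusted p = 0.0017). In each of these 3 genes both *sws*1 libraries lay below both WT libraries, and the gap between the genotypes was wider than that between the replicates for *RpL29* and *RpL41*. They were the only 3 of the 92 genes that were lower with DESeq2 (background 5.53%) and with upper-quartile scaling (background 9.74%), and they also passed without any single library. The 2 corrections for transcript length moved these genes in opposite directions. With an offset for length none of the 3 passed, with log2FC of -0.31 for *RpL39*, -0.23 for *RpL29* and -0.09 for *RpL41*, while subtracting a fitted length trend from the log2FC, with p-values not recomputed, gave -0.96, -0.76 and -0.65 in the same order.

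The other lower genes were closer to the threshold. *RpL30*, which also binds its own transcript in yeast, had 169 and 139 CPM in *sws*1 and 212 and 185 CPM in WT (log2FC = -0.37 ± 0.13). *RpL15*, in the core of the large subunit, had 291 and 266 CPM in *sws*1 and 346 and 363 CPM in WT (log2FC = -0.35 ± 0.11). Both were lower in each *sws*1 library than in either WT library. *RpL21* had 330 and 297 CPM in *sws*1 and 419 and 374 CPM in WT (log2FC = -0.34 ± 0.11). The lower genes *RpS5b* and *RpL10Aa* are paralogs and are described with their pairs. The edgeR adjusted p of *RpL30*, *RpL15* and *RpL21* lay between 0.0254 and 0.0498, and none of them passed with DESeq2, with upper-quartile scaling or with the length offset. *RpL30* and *RpL21* also lost the call without *sws*1 replicate 2 and without WT replicate 1, and *RpL15* kept it only without *sws*1 replicate 1. Of the exon bases of *RpL30*, 25.1% overlap *CG31793* on the opposite strand, and the strand setting of the counting is not given in the sources used here.

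Both genes that were higher in *sws*1 encode long proteins of the large subunit. *RpL4*, whose protein extends into the exit tunnel, had 267 and 250 CPM in *sws*1 and 204 and 195 CPM in WT (log2FC = 0.37 ± 0.11, edgeR adjusted p = 0.023). *RpL3*, which lies near the peptidyl transferase center, had 204 and 200 CPM in *sws*1 and 153 and 155 CPM in WT (log2FC = 0.39 ± 0.12, edgeR adjusted p = 0.0244). Replicates of these genes lay close together and the genotypes were apart. Both passed with upper-quartile scaling, where 5 of the 92 genes were called (background 21.3%, 11.5% higher), and with the length offset and neither did with DESeq2, which called 3 of the 92 genes (background 8.7%), 0 of them higher (background 3.18%). When each library was left out, *RpL4* passed only without *sws*1 replicate 2 and *RpL3* in 0 of 4 fits. An antisense RNA gene overlaps 18.5% of the exon bases of *RpL3*. Of the 81 genes that did not pass, 5 lay beyond 0.3 in either direction: *RpL18* (log2FC = 0.40 ± 0.17), *RpS10a* (-0.38 ± 0.16), *RpS16* (-0.31 ± 0.16), *RpS21* (-0.32 ± 0.13) and *RpS28a* (-0.61 ± 0.42).

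**Figure D2:**
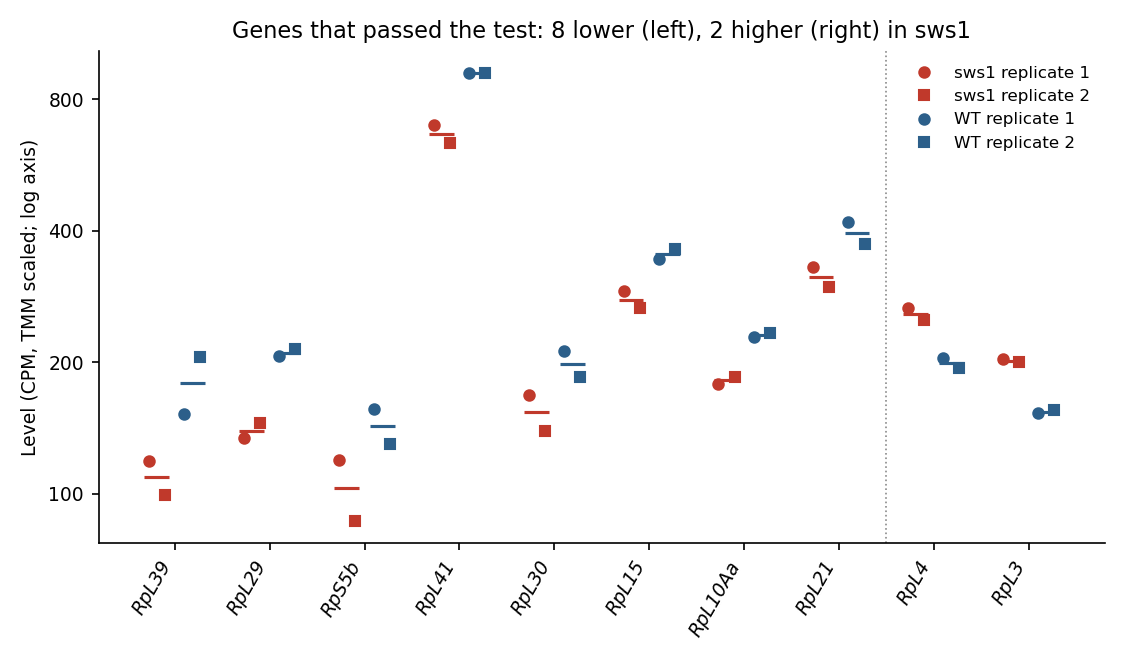
CPM (log axis, scaled by TMM) in each library of 10 genes that passed the test, *sws*1 in red and WT in blue, with circles for replicate 1, squares for replicate 2 and a dash for the mean of each genotype. The *sws*1 points lie below the WT points for the 8 genes on the left (*RpL41* at 699 and 635 CPM against 919 and 919 CPM) and above them for *RpL4* and *RpL3* on the right.

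The log2FC was higher in genes with longer transcripts. Over the 92 genes, the Spearman correlation of the log2FC with length was 0.54, and it was 0.47 over the 87 genes of at least 400 bases. Over the 9542 other tested genes it was 0.22, and over the 3493 of these that were no longer than the longest ribosomal protein transcript it was 0.16. These are descriptions across genes, which share the same 4 libraries and are not independent. The 5 genes under 400 bases (*RpL39*, *RpS28a*, *RpL41*, *RpL29* and *RpS28-like*) had a median log2FC of -0.59, and all 5 values were negative. The medians were -0.12 over the 27 genes of 400 to 600 bases and -0.07 over the 39 of 600 to 800 bases. They were positive in the longer genes, 0.09 over 12 genes of 800 to 1000 bases and 0.14 over 9 genes of 1000 to 1500 bases, where both higher genes stood. Other tested genes in these 5 length ranges had medians of -0.10, -0.25, -0.18, -0.11 and -0.02. In the pairs of single libraries, each *sws*1 library over each WT library gave a correlation with length between 0.44 and 0.49, while replicate 1 over replicate 2 gave -0.10 in *sws*1 and 0.08 in WT. Over the 9542 other genes, replicate 1 over replicate 2 gave -0.18 in *sws*1 and -0.24 in WT, against 0.22 between the genotypes. Over the 3493 of these no longer than the longest ribosomal protein transcript, it gave -0.017 in *sws*1 and 0.015 in WT, against 0.16. The source of these trends was not tested.

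**Figure D3:**
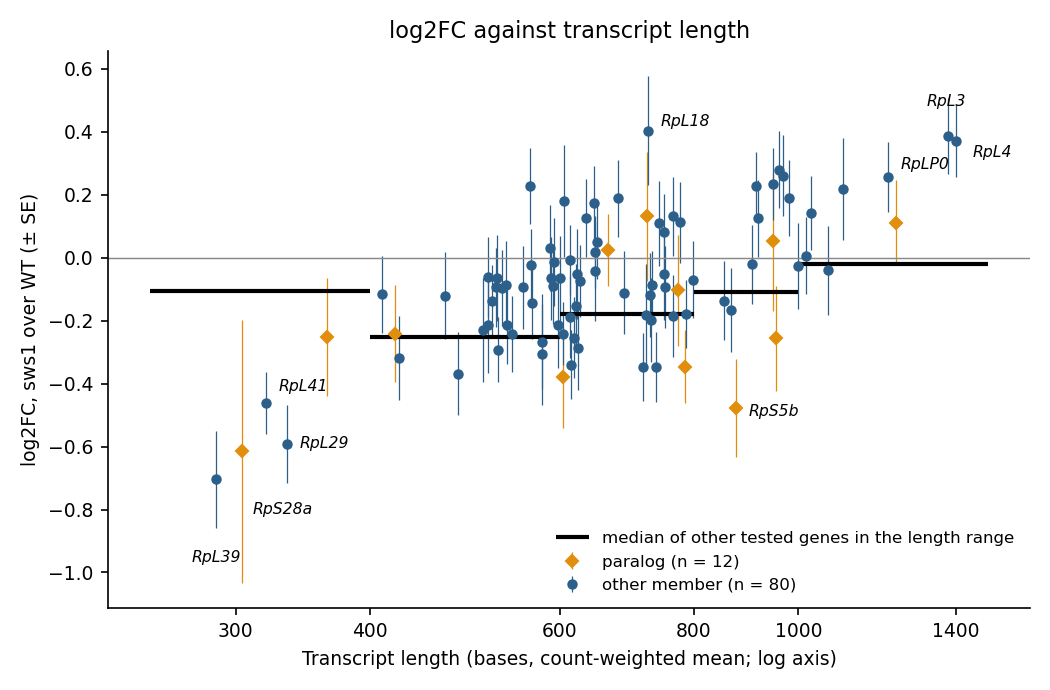
Log2FC (*sws*1 over WT, bars of 1 SE) against transcript length in bases (log axis) for the 12 paralogs (diamonds) and the other 80 genes (circles). Black lines give the median of the other tested genes in each length range. Points run from *RpL39* at -0.70 on the left to *RpL3* at 0.39 on the right, and *RpS5b* lies below the other genes of its length.

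An offset fitted to the trend of each library with length over all tested genes, chosen after seeing the data, changed which genes passed. With it 1 of the 92 genes was lower and 10 were higher, against a background of 11.8% and 9.69% (21.5% in either direction). The lower gene was *RpS5b* (log2FC = -0.38 ± 0.14, edgeR adjusted p = 0.0478). *RpL3* (0.40 ± 0.12) and *RpL4* (0.38 ± 0.11) were among the 10 higher ones, beside *RpL18*, *RpL27*, *RpS6*, *RpS24*, *RpL12*, *RpL6*, *RpS3A* and *RpL7*, with log2FC between 0.32 and 0.56. The part of transcript length in the differences between the genotypes was not tested in any other way.

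The paralogs made up a small part of the ribosomal protein RNA. The 12 of them took 4.99% (Wilson 95% interval 4.81 to 5.17) and 5.16% (4.96 to 5.37) of the counts of the 92 genes in *sws*1, against 5.27% (5.14 to 5.41) and 5.34% (5.15 to 5.53) in WT. Both *sws*1 shares lay below both WT shares (exact two-sided permutation p = 0.333, the smallest possible with n = 2 each). The median paralog stood at 130 and 112 TPM in *sws*1 and at 125 and 135 TPM in WT, while the median of the 11 canonical partners was 497 and 380 TPM in *sws*1 and 391 and 385 TPM in WT. Of the 12 paralogs, 2 were lower and 0 higher in *sws*1 (background 11.5% and 9.38% of all tested genes), so their share of calls was near the background. Their median log2FC was -0.25, but 0.04 with the length offset and -0.09 without *sws*1 replicate 2. Of the 11 partners 0 passed (background 20.9%), with a median of -0.09.

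**Figure D4:**
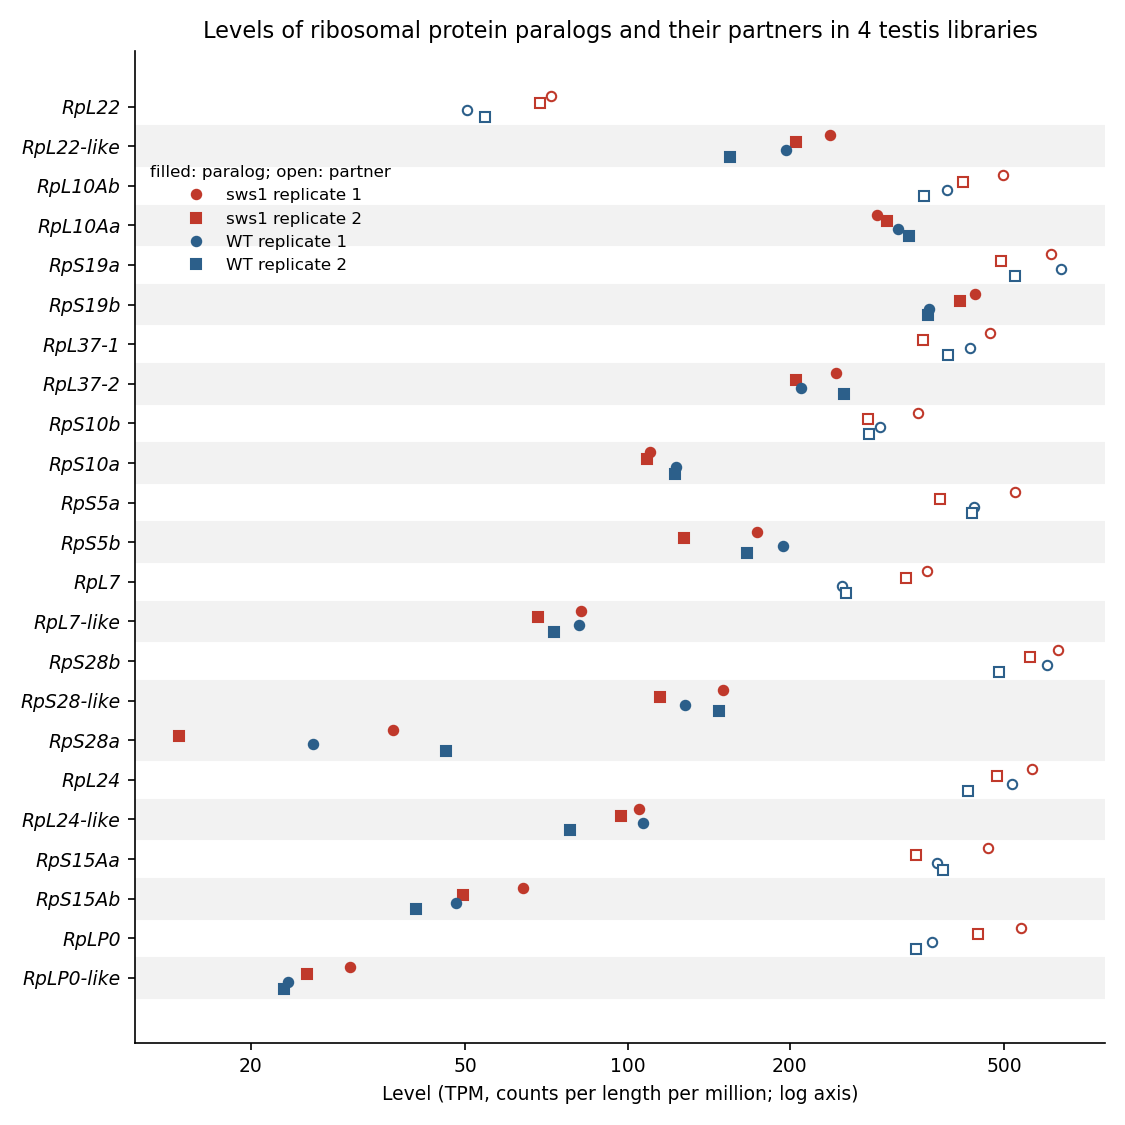
TPM (log axis) of the 12 paralogs (filled, grey rows) and their 11 canonical partners (open, white rows) in each library, *sws*1 in red and WT in blue, with circles for replicate 1 and squares for replicate 2. *RpL22-like* lies to the right of *RpL22* in all 4 libraries, and each other paralog lies to the left of its partner.

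*RpL22-like* was the only paralog above its partner in WT, where its mean TPM was 3.36 times that of *RpL22*. Its protein is known to enter ribosomes of the male germline. *RpL22-like* had 237 and 205 TPM in *sws*1 and 197 and 155 TPM in WT, and *RpL22* had 72.1 and 68.7 TPM in *sws*1 and 50.3 and 54.5 TPM in WT. The paralog held 76.7% and 74.9% of the TPM of the pair in *sws*1 and 79.7% and 74.0% in WT, so the genotypes overlapped. Neither gene passed the test (log2FC = 0.11 ± 0.14 for *RpL22-like* and 0.22 ± 0.16 for *RpL22*). A noncoding RNA gene on the same strand covers 34.3% of the exon bases of *RpL22*.

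*RpL10Aa* and *RpS19b* came next by their mean share of the pair in WT. The mean TPM of the partner in WT was 1.14 times that of *RpL10Aa* and 1.60 times that of *RpS19b*. *RpL10Aa*, an intronless copy of the protein of the L1 stalk, had 179 and 185 CPM in *sws*1 and 229 and 233 CPM in WT and was lower in *sws*1 (log2FC = -0.35 ± 0.12, edgeR adjusted p = 0.0373). It held 36.9% and 42.0% of the TPM of its pair in *sws*1 and 44.9% and 48.4% in WT. Its partner *RpL10Ab*, with 497 and 418 TPM in *sws*1 and 391 and 354 TPM in WT, had a log2FC of 0.08 ± 0.12. The call of *RpL10Aa* was lost with DESeq2, with upper-quartile scaling, with the length offset and without any single library. *RpS19b*, a copy known from the germline, had 440 and 413 TPM in *sws*1 and 362 and 361 TPM in WT, and *RpS19a* had 611 and 493 TPM in *sws*1 and 636 and 523 TPM in WT. The share of *RpS19b* was 41.9% and 45.6% in *sws*1 and 36.3% and 40.9% in WT, higher in both *sws*1 libraries. On the CPM scale its libraries overlapped (log2FC = 0.02 ± 0.12), as did those of *RpS19a* (-0.29 ± 0.13).

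*RpS5b*, a copy of a protein in the head of the small subunit that is known from the female germline, had 119 and 86.7 CPM in *sws*1 and 156 and 130 CPM in WT. It was lower in *sws*1 (log2FC = -0.48 ± 0.16, edgeR adjusted p = 0.0359), with a wide spread between replicates in both genotypes. It kept this call with the length offset and lost it with DESeq2, with upper-quartile scaling (edgeR adjusted p = 0.0539), without *sws*1 replicate 2 and without WT replicate 1. *RpS5a* had 355 and 256 CPM in *sws*1 and 349 and 337 CPM in WT, which overlapped (log2FC = -0.17 ± 0.13). The share of *RpS5b* in the TPM of the pair was 25.0% and 25.1% in *sws*1 and 30.6% and 27.7% in WT.

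*RpS10a*, an intronless copy of a protein of the small subunit, had 110 and 108 TPM in *sws*1 and 123 and 122 TPM in WT, and *RpS10b* had 346 and 279 TPM in *sws*1 and 294 and 280 TPM in WT. The share of *RpS10a* was 24.2% and 28.0% in *sws*1 and 29.5% and 30.4% in WT. Its replicates lay close together and its log2FC of -0.38 ± 0.16 did not pass (edgeR adjusted p = 0.0998), and *RpS10b* had -0.09 ± 0.13. *RpL37-2*, also without introns, had 243 and 206 TPM in *sws*1 and 209 and 252 TPM in WT, with a share of 34.1% and 36.8% in *sws*1 and 32.7% and 39.1% in WT against *RpL37-1* (470 and 354 TPM in *sws*1, 431 and 393 TPM in WT). The genotypes overlapped in both genes on this scale, and neither passed (log2FC = -0.24 ± 0.15 for *RpL37-2* and -0.22 ± 0.14 for *RpL37-1*). *RpS15Ab*, the next intronless copy, had 63.9 and 49.5 TPM in *sws*1 and 48.1 and 40.5 TPM in WT (log2FC = 0.13 ± 0.20), and *RpS15Aa* had 465 and 343 TPM in *sws*1 and 374 and 385 TPM in WT (-0.12 ± 0.13). Its share was 12.1% and 12.6% in *sws*1 and 11.4% and 9.52% in WT, higher in both *sws*1 libraries.

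Several genes with a name ending in -like have relatives that act in ribosome assembly rather than in the finished ribosome. *RpL24-like* is the relative of yeast Rlp24 and *RpLP0-like* that of yeast Mrt4, both of which hold a place that the mature protein takes later, and the human relative of *RpL7-like* is RPL7L1. *RpL7-like* had 82.1 and 68.1 TPM in *sws*1 and 81.4 and 73.0 TPM in WT (log2FC = -0.26 ± 0.17), and *RpL7* had 359 and 328 TPM in *sws*1 and 250 and 255 TPM in WT (0.23 ± 0.11). Its share of the pair was 18.6% and 17.2% in *sws*1 and 24.6% and 22.3% in WT, lower in both *sws*1 libraries, although neither gene passed by itself. Nearly all exon bases of *RpL7-like* (98.8%) are shared with *CG34164* on the same strand, which is listed at 0 counts in all libraries. *RpLP0-like* was the lowest of the 92 genes in WT, with 30.6 and 25.4 TPM in *sws*1 and 23.5 and 23.1 TPM in WT (log2FC = 0.05 ± 0.22), and *RpLP0*, the base of the stalk, had 537 and 446 TPM in *sws*1 and 367 and 343 TPM in WT (0.26 ± 0.11). Its share was 5.38% and 5.38% in *sws*1 and 6.02% and 6.30% in WT. *RpL24-like* had 105 and 97.1 TPM in *sws*1 and 107 and 78.1 TPM in WT (log2FC = -0.10 ± 0.18), and *RpL24* had 562 and 484 TPM in *sws*1 and 516 and 428 TPM in WT (-0.07 ± 0.12). The share of *RpL24-like* overlapped, at 15.8% and 16.7% in *sws*1 and 17.2% and 15.4% in WT.

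*RpS28b*, a protein at the exit of the mRNA channel, has 2 copies among the 92 genes. *RpS28-like* had 150 and 115 TPM in *sws*1 and 128 and 147 TPM in WT (log2FC = -0.25 ± 0.19) and a share of 19.3% and 17.1% in *sws*1 and 17.6% and 23.2% in WT. *RpS28a*, without introns, had 36.8 and 14.7 TPM in *sws*1 and 26.1 and 46.1 TPM in WT, with a share of 5.53% and 2.57% in *sws*1 and 4.18% and 8.60% in WT. The genotypes overlapped for both copies and for *RpS28b*, which had 628 and 558 TPM in *sws*1 and 599 and 489 TPM in WT (log2FC = -0.09 ± 0.13).

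Over the 12 pairs, the mean share of the paralog was lower in *sws*1 in 10 and higher in 2. The libraries of the genotypes did not overlap in 5 pairs with a lower share (*RpL10Aa*, *RpL7-like*, *RpS5b*, *RpS10a* and *RpLP0-like*) and in the 2 with a higher one (*RpS19b* and *RpS15Ab*). In the CPM of single genes, a different measure, 28.9% of all tested genes did not overlap and were lower in *sws*1, and 31.3% were higher. In 5 pairs they overlapped, and *RpS28-like* and *RpS28a* share the partner *RpS28b*. The largest difference of means was 7.22 percentage points, in *RpL10Aa*, and the smallest 0.069 percentage points, in *RpL24-like*. With n = 2 each, no pair could give an exact two-sided permutation p under 0.333, and adjusted over the 12 pairs the smallest p was 0.571. For the same shares in counts, the Wilson 95% interval of a library spanned between 1.74 and 7.69 percentage points.

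**Figure D5:**
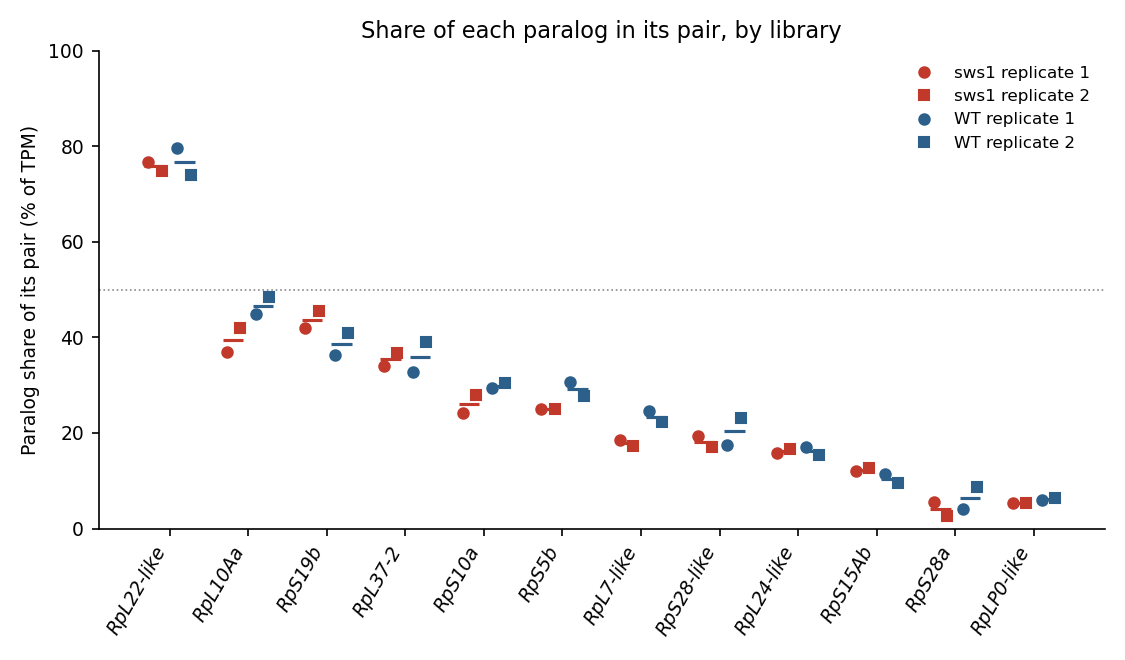
Share of each paralog in the TPM of its pair (percent, vertical axis) by library, *sws*1 in red and WT in blue, with circles for replicate 1, squares for replicate 2, a dash for the mean of each genotype and a dotted line at 50%. Only *RpL22-like* lies above the line, at 76.7% and 74.9% in *sws*1 and 79.7% and 74.0% in WT.

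Positions and introns were read from the annotation, with no test of a difference between the groups of genes. On BDGP 6.54, 14 of the 92 genes lie on the X chromosome, 19 on 2L, 21 on 2R, 14 on 3L, 23 on 3R and 1, *RpS3A*, on chromosome 4. Of the 11 canonical partners 7 are on the X chromosome, of the 65 single genes 5 are, and of the 12 paralogs 0 are, with 2 on 2L, 4 on 2R and 6 on 3R. Among the paralogs that passed, *RpL10Aa* (FBgn0038281) covers bases 15037366 to 15038149 of 3R and *RpS5b* (FBgn0038277) bases 14900432 to 14901563 of the same arm, whereas *RpL10Ab* is on 3L and *RpS5a* on the X chromosome. *RpL22-like* (FBgn0034837) covers bases 23246610 to 23247893 of 2R. Of the other genes that passed, *RpL39* (FBgn0023170) covers bases 24061853 to 24062431, *RpL29* (FBgn0016726) bases 21293768 to 21294404 and *RpL41* (FBgn0066084) bases 24903416 to 24903935, all on 2R. *RpL4* (FBgn0003279) covers bases 27922821 to 27924888 and *RpL3* (FBgn0020910) bases 11221894 to 11225173 of 3R. Only 6 of the 92 genes have no intron in any annotated transcript. Besides *RpLP2*, these are the paralogs *RpL10Aa*, *RpL37-2*, *RpS10a*, *RpS15Ab* and *RpS28a*. Of the 14 genes on the X chromosome 0 passed the edgeR test (background 20.9%), although *RpS6* was higher with the length offset, *RpL37-1*, *RpS5a* and *RpS19a* were lower without *sws*1 replicate 1, and *RpS19a* also without WT replicate 2. Their median log2FC was -0.11, against -0.18 on 2R, -0.07 on 2L, -0.06 on 3R and -0.01 on 3L.

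The duplicate pairs gave no call. *RpS14a* and *RpS14b*, which encode the same protein of the small subunit, lie 220 bases apart on the X chromosome. As reads can match either copy, the split between them is uncertain, and their summed counts were 480 and 339 in *sws*1 and 795 and 481 in WT. *RpS14a* held 57.1% and 52.4% of the TPM of the pair in *sws*1 and 52.4% and 49.8% in WT. *RpL34a* held 29.6% and 29.2% of its pair with *RpL34b* in *sws*1 and 25.4% and 27.2% in WT.

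When each transcript was tested by itself, 0 of the 153 transcripts of these genes that passed the filter were called by edgeR, against 0 of all 14158 (unadjusted p under 0.05 in 18 of the 153, smallest edgeR adjusted p 0.0994). Counts per transcript varied more between replicates than counts per gene, with a biological coefficient of variation of 0.607 against 0.106. The leading transcript was not the same in both replicates in 1 gene in *sws*1 and in 2 genes in WT, out of 69 with several transcripts and no library under 50 counts.

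Other genes of translation were read from the same fit across all genes. Of 11 genes for ribosome-associated and elongation factors, 6 were higher in *sws*1 and 1 was lower (background 9.38% and 11.5%), with a median log2FC of 0.34 against 0.02 over all tested genes. *eEF2*, which moves the ribosome along the mRNA, had 1963 and 1828 counts in *sws*1 and 2194 and 1491 in WT (log2FC = 0.53 ± 0.10). *eEF1alpha1*, which delivers aminoacyl-tRNA, had 3779 and 3697 counts in *sws*1 and 4618 and 3115 in WT (0.44 ± 0.10). Counts are not scaled for depth, which was lower in *sws*1. *sta*, a protein of the small subunit, was higher in *sws*1 (log2FC = 0.46 ± 0.11), as were *Rack1* (0.34 ± 0.12), which sits on the small subunit, *eEF1gamma* (0.36 ± 0.12) and *eEF1alpha2* (0.75 ± 0.22). *bic*, the beta subunit of the nascent polypeptide-associated complex, was lower (-0.57 ± 0.10). Of 23 ribosome biogenesis genes 2 were higher, *Non1* (0.95 ± 0.15) and *Polr1B* (1.09 ± 0.37), a subunit of RNA polymerase I, and 0 were lower (median 0.18), which is close to the background for higher genes. Of 12 regulators and sensors (median 0.22) 2 were higher and 0 were lower, against a background of 9.38% and 11.5%. The higher ones were *Xrp1* (0.42 ± 0.15), which responds to the loss of ribosomal proteins, and *Trf2* (0.34 ± 0.12), which acts at ribosomal protein promoters. The edgeR adjusted p of *Rack1*, *Polr1B*, *Xrp1* and *Trf2* lay between 0.0421 and 0.047, close to the threshold. *Polr1B* had only 21 and 21 counts in *sws*1 and 18 and 10 in WT. Alternative settings are given here only for the ribosomal protein genes.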

How the data were processed

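RNA of *sws*1 and WT testes (2 libraries each) was sequenced, and per the labels the authors used Trimmomatic, HISAT2 and HTSeq. The values the authors deposited are whole-number counts per transcript, without normalization. Their genome build and strand setting are not given in the sources used here. Of 29939 transcripts, 29929 were matched to genes of BDGP 6.54 (Ensembl release 115) and summed per gene, and 10 were left out. Genotypes were compared over all genes in R 4.3.3 with edgeR 4.0.16 (filterByExpr, TMM, robust quasi-likelihood test). A call needed a log2FC beyond 0.3 either way and a p under 0.05 after Benjamini-Hochberg adjustment. The SE is the absolute log2FC over the square root of F. CPM are scaled by TMM, except sums over marker lists, and TPM use the count-weighted mean transcript length without TMM. Length is that same mean. Ratios of single libraries used CPM plus 0.5. Shares were compared by an exact permutation test in Python 3.11.15 with scipy 1.17.1. Library totals were 2364636 and 2218335 counts in *sws*1 and 4498060 and 2692475 in WT.

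The genes named are all paralogs and partners, the called genes with the largest log2FC (up to 8 canonical ones each way) and the 5 with the most TPM in WT. *RpS16*, *RpS21*, *RpL18* and the genes called with the length offset were named after their values were seen. The members, the gene lists and the tests were chosen with earlier results of these data known. Alternatives were DESeq2 1.42.0, other scaling, filters and thresholds, a replicate block, 2 length corrections, single transcripts and leaving out each library. The tests were tested on simulated data. Promoters and sequences were not analysed here, and 1 gene of the set is counted but not reported here by itself.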

Additional observations from a re-analysis of the deposited data

How the results depend on the processing

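The number of ribosomal protein genes lower in *sws*1, 9 in edgeR with TMM, was 3 with DESeq2, 3 with upper-quartile scaling, 1 with the length offset and 0 over single transcripts, and between 3 and 19 when each library was left out. The number of higher genes, 2, was 0 with DESeq2, 10 with the length offset, 0 over single transcripts and between 0 and 3 without each library. The median log2FC of the 76 single genes and canonical partners, -0.09, was 0.108 with the length offset and between -0.231 and 0.041 without each library, and that of the paralogs, -0.25, was 0.043 with the offset and between -0.347 and -0.0903 without each library. The mean difference in paralog share, -1.58 percentage points, lay between -3.15 and -0.78 without each library. The cause of these shifts was not tested. Of all tested genes, 5.53% were lower and 3.18% higher with DESeq2. These shares were 9.74% and 11.5% with upper-quartile scaling and 11.8% and 9.69% with the length offset. Over single transcripts 0 of all 14158 were called, so the 0 there is not particular to these genes. A length trend fitted by local regression (loess) was subtracted from the log2FC, as planned at first, and left 9 lower and 2 higher genes. Of all 9634 tested genes, this correction left 1104 lower and 888 higher. The p-values were not recomputed in it, so a call could be lost only by crossing 0.3. The offset was added after seeing the data. Over all tested genes, samples with the same number did not deviate together (correlation -0.0077). Among the 92 genes, however, replicate 1 had the higher CPM in 80 genes in *sws*1 and in 78 in WT. With the replicate block 9 genes were lower and 2 higher, the same genes as without it. Of all 9634 tested genes, 1152 were lower and 952 higher with this block. Over 36 named genes and 12 alternatives, 377 of 431 values stayed on their side of the threshold, 45 calls were lost, 9 were gained and none was reversed. Calls could be lost only in the 11 genes that passed, so all 45 losses fell on these. Calls could be gained only in the 25 named genes that did not pass. Of these 25 genes, 15 changed sign under at least 1 alternative. With *RpS28a* at 8 counts in 1 library, depth limits the lowest paralogs most.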
